A study of Arabidopsis thaliana with 12 samples.

Results

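The genes described here are the 6 AP2-type transcription factor genes of Arabidopsis that carry a miR172 target site: AP2 (AT4G36920), TOE1 (AT2G28550), TOE2 (AT5G60120), TOE3 (AT5G67180), SMZ (AT3G54990) and SNZ (AT2G39250). Each was found by its locus identifier and has 1 probe set among the 27827 of the array, and they were followed in all 4 groups beside the 5 MIR172 loci. Darkness lowered TOE1, TOE2, TOE3 and SNZ in the WT and in dcl1-9, while MIR172A rose in both. The TOE3 calls in both genotypes and the TOE2 call in dcl1-9 could be lost by leaving out a single array. The TOE3 and SNZ calls in dcl1-9 were lost when 16 was added to each value before the logarithm. TOE2 was higher in the mutant than in the WT under both conditions. SNZ was lower in the mutant in the light, and AP2 and SMZ were called in no comparison by the test used throughout, which has group as its only term. With the replicate number as a further term, AP2 was called lower in the mutant in both conditions.

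The samples were detached mature leaves (true leaves 5 to 7) of 4 to 5 week-old plants, floated on water for 6 h at 22 °C either in the light (100 µE) or in the dark, with darkness starting 2 h after the onset of a 12 h light period. WT was the accession Columbia (Col-0), and dcl1-9 was a weak allele of DICER-LIKE1 that arose in Wassilewskija and was backcrossed to Col-0, so that the mutation and any Wassilewskija segment kept around it cannot be told apart. The mutant line was kept as heterozygotes, and homozygous plants were picked by their phenotype. Each of the 4 groups (WT light, WT dark, dcl1-9 light, dcl1-9 dark) had 3 arrays, which the labels call biological replicates, and nothing else was applied to any group.

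DCL1 is the enzyme that cuts miRNA precursors out of primary MIR transcripts in plants. The miRNA miR172 pairs with a site in the coding region of AP2-type messages and acts on them both by cleavage and by repression of translation, so that a transcript level shows only a part of this control. In leaves the TOE genes, SMZ and SNZ are known as repressors of flowering whose levels decline as the plant ages, and miR172 rises over the same period. The array reads transcripts, and for MIR172 this means the primary transcript and not mature miR172.

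The only designed sequences of the study that bear on these genes are the primers it used to amplify the MIR172A transcript, which locate the transcript that the array also reads. The forward primer was 5′-atctgttgatggacggtggt-3′ (20 bases) and the reverse primer was 5′-aatagtcgttgattgccgatg-3′ (21 bases). The amplification data themselves were not analysed here.

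In the RefSeq annotation of TAIR10.1, TOE1 and SNZ lie on chromosome 2, SMZ on chromosome 3, AP2 on chromosome 4, and TOE2 and TOE3 on chromosome 5. MIR172A is also on chromosome 2, with 64 annotated genes between it and TOE1. RefSeq lists 6 transcripts each for TOE1 and TOE2, 4 for TOE3, and 2 each for AP2, SMZ and SNZ, and 1 value per gene cannot separate them. TOE3 overlaps AT5G67170 and SMZ overlaps AT3G54980 in that annotation, so part of the signal of these 2 probe sets could come from the overlapping gene. None of the other members and no MIR172 locus overlaps another gene.

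Array medians ranged from 29.96 to 34.54 intensity units and the median coefficient of variation between replicates from 14.7 to 17.1%. DIN6, a marker of sugar starvation, averaged 13.5 ± 5.03 in WT light and 1881 ± 257 after darkness, against 22.5 ± 11.8 and 1446 ± 383 in the mutant (mean ± SD, n = 3). The DCL1 probe set was higher in dcl1-9 than in the WT, at 42.2 ± 5.91 against 20.0 ± 2.48 in the light and 61.1 ± 8.45 against 23.7 ± 2.70 in the dark (limma adjusted p = 0.00392 and 0.000931). Where its probes lie relative to the dcl1-9 insertion was not given in the sources used here, so it does not check the genotype. The 3 leaf markers (LHCB1.3, RBCS1A and RCA) together summed to between 3002 and 5062 in every array, and in the dark RCA fell in both genotypes (1074 to 514 in the WT and 1193 to 718 in dcl1-9) and RBCS1A in the WT (3418 to 2729). Of the flower, meristem, root and seed markers most had a group mean under 20, with 1 of the 4 flower markers, PISTILLATA (PI), rising in WT dark from 7.44 to 66.2 and another, SEPALLATA3 (SEP3), falling from 25.1 to 11.5. The root marker EXPA7 rose in dcl1-9 dark (23.5 to 67.7) and the meristem marker CLV3 in WT dark (5.64 to 9.55). Their part in the values below was not tested. In whole leaves, fewer cells of a type and less RNA per cell cannot be told apart.

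Differences are given as log2 differences between group means of log2 intensity, with the standard error (SE), and the fold is 2 to the power of that value. A gene was called where limma's adjusted p, over all 27827 probe sets, was below 0.05. In the WT, darkness lowered 4 of the 6 genes (TOE1, TOE2, TOE3 and SNZ) and raised none. Over all probe sets 27.4% were called in this comparison, 14.5% lower and 12.8% higher. In dcl1-9 the same 4 genes were lower and again none higher, with 23.7% of all probe sets called, 12.9% lower and 10.8% higher. The median log2 difference of the 6 genes was -0.84 in the WT and -0.58 in dcl1-9, where the median over all probe sets was 0.06 in both.

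**Figure D1:**
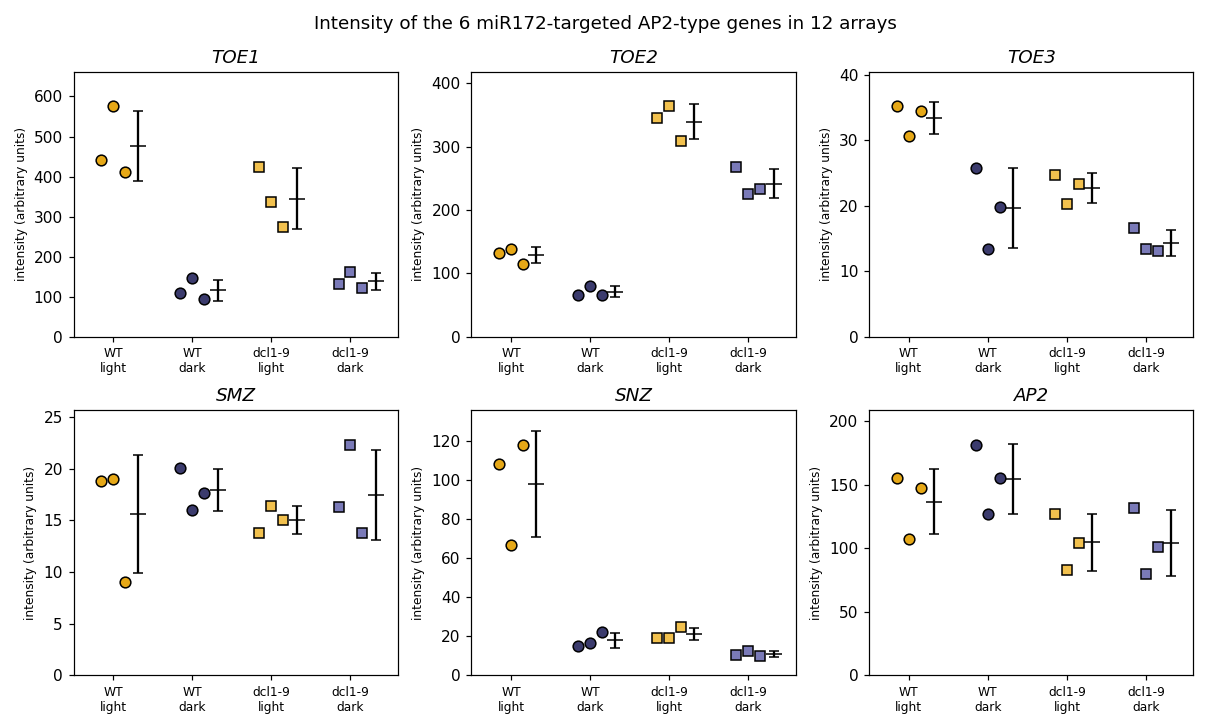
Intensity (arbitrary units, linear axes from 0) of the 6 miR172-targeted genes in each of the 12 arrays. Circles are WT and squares dcl1-9, with light groups in yellow and dark groups in blue, and the bar beside each group is the mean ± SD of 3 arrays. TOE1 and TOE2 fell in the dark in both genotypes, TOE2 was higher in every dcl1-9 array than in any WT array, and SNZ was high only in WT light (66.98 to 118.3).

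TARGET OF EARLY ACTIVATION TAGGED 1 (TOE1, AT2G28550) is a repressor of flowering that also binds the promoter of FT. Its intensity in WT light was 440.77, 575.14 and 412.62 in replicates 1 to 3, and in WT dark it was 108.73, 145.74 and 93.49. The mutant had 423.96, 336.09 and 273.05 in the light and 131.9, 162.09 and 120.99 in the dark. Every dark array of either genotype lay below every light array. In the WT TOE1 fell by 2.05 on the log2 scale (SE 0.21, 4.13-fold, limma adjusted p = 3.71e-06), and in dcl1-9 it fell 2.47-fold (95% confidence interval of the log2 difference -1.75 to -0.86, limma adjusted p = 0.000279).

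TOE2 (AT5G60120), which acts redundantly with TOE1 in repressing flowering, had intensities of 131.94, 139.26 and 115.55 in WT light and 65.28, 80.87 and 66.28 in WT dark. Its dcl1-9 values were far above these, at 344.99, 363.64 and 309.24 in the light and 267.45, 225.12 and 233.11 in the dark. The 4 groups did not overlap, and the order from low to high was WT dark, WT light, dcl1-9 dark and dcl1-9 light. The fall in the dark was 1.82-fold in the WT (log2 difference -0.87, SE 0.15, limma adjusted p = 0.000371) and 1.40-fold in dcl1-9 (log2 difference -0.49, SE 0.15, limma adjusted p = 0.0235). The call in dcl1-9 was lost without dcl1-9 light replicate 1 (-0.48, limma adjusted p = 0.0635) or 2 (-0.44, 0.0911) and without dcl1-9 dark replicate 2 (-0.44, 0.0925) or 3 (-0.46, 0.0761).

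TOE3 (AT5G67180), a further member of the TOE group, was of low intensity, with 35.17, 30.68 and 34.47 in WT light and 25.71, 13.43 and 19.78 in WT dark. In dcl1-9 light the values were 24.68, 20.27 and 23.32, and in dcl1-9 dark 16.64, 13.42 and 13.06. Within each genotype the light and dark arrays did not overlap, but WT dark overlapped both dcl1-9 groups. TOE3 fell 1.76-fold in the WT (log2 difference -0.82, SE 0.22, limma adjusted p = 0.0128) and 1.59-fold in dcl1-9 (-0.67, SE 0.22, limma adjusted p = 0.0426).

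Both of these TOE3 calls could be lost by leaving out a single array, although the dcl1-9 estimate then stayed between -0.78 and -0.60. The WT call was lost without WT dark replicate 2 (-0.57, limma adjusted p = 0.0645). In dcl1-9 it was lost without dcl1-9 light replicate 1, 2 or 3 (-0.61, -0.75 and -0.65, limma adjusted p = 0.124, 0.0549 and 0.103) and without dcl1-9 dark replicate 2 or 3 (-0.62 and -0.60, limma adjusted p = 0.119 and 0.132).

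SCHNARCHZAPFEN (SNZ, AT2G39250) is a repressor of flowering and the paralogue of SCHLAFMUTZE (SMZ). SNZ had intensities of 108.56, 66.98 and 118.3 in WT light and 14.77, 16.49 and 22.05 in WT dark. The dcl1-9 arrays gave 19.28, 19.1 and 24.83 in the light and 10.21, 12.32 and 9.77 in the dark. WT light lay above all other arrays, WT dark and dcl1-9 light overlapped, and dcl1-9 dark lay below the rest. Darkness lowered SNZ 5.43-fold in the WT (log2 difference -2.44, SE 0.24, limma adjusted p = 2.51e-06) and 1.95-fold in dcl1-9 (-0.97, SE 0.24, limma adjusted p = 0.00704). Adding 16 to each value before the logarithm moved the dcl1-9 difference to -0.47 and ended that call (limma adjusted p = 0.0503). The WT difference moved to -1.73 and was still called (limma adjusted p = 2.22e-06).

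SMZ (AT3G54990), which represses flowering by binding FT in leaves and elsewhere, stayed between 8.98 and 22.35 over the 12 arrays, and its groups overlapped. Its log2 difference in the dark was 0.28 in the WT (95% confidence interval -0.32 to 0.87) and 0.19 in dcl1-9 (-0.40 to 0.79). The mean of SMZ over all arrays was only 16.5, so a missing call does not show an absent response. APETALA2 (AP2, AT4G36920), best known for specifying sepals and petals, had 155.57, 107.22 and 147.65 in WT light and 181.68, 127.11 and 155.19 in WT dark. In dcl1-9 it had 127.27, 82.51 and 104.5 in the light and 131.59, 79.56 and 101.34 in the dark. All 4 groups of AP2 overlapped, although each dcl1-9 array lay below the WT array of the same replicate number and condition. Its log2 difference in the dark was 0.18 in the WT (95% confidence interval -0.30 to 0.66, limma adjusted p = 0.62) and -0.02 in dcl1-9 (-0.50 to 0.46, limma adjusted p = 0.97), intervals that do not reach the falls measured for TOE1.

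Beside these genes, darkness raised 1 of the 5 MIR172 loci in the WT, and in dcl1-9 it raised 1 and lowered 1. The share called among all probe sets was 27.4% in the WT (12.8% higher) and 23.7% in dcl1-9 (10.8% higher, 12.9% lower). Of the 5 loci 4 averaged under 20. MIR172A was at 65.57, 34.1 and 63.59 in WT light and at 512.44, 452.62 and 414.74 in WT dark. For dcl1-9 it was at 208.31, 255.59 and 207.75 in the light and at 880.34, 966.98 and 852.61 in the dark. The 4 groups did not overlap, and dcl1-9 lay above the WT in both conditions. The rise in the dark was 8.78-fold in the WT (log2 difference 3.13, SE 0.21, limma adjusted p = 9.66e-08) and 4.03-fold in dcl1-9 (2.01, SE 0.21, limma adjusted p = 7.32e-06).

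MIR172B, the locus that SPL9 is known to activate, was near the bottom of the range in the WT, with 2.47, 5.25 and 3.97 in the light and 2.87, 4.37 and 3.86 in the dark. In dcl1-9 light it was at 27.61, 44.1 and 46.01, and in dcl1-9 dark at 11.58, 15.48 and 7.79. All dcl1-9 arrays lay above all WT arrays, and within dcl1-9 the dark arrays lay below the light arrays. Its fall in dcl1-9 was 3.42-fold (log2 difference -1.78, SE 0.33, limma adjusted p = 0.00106), whereas in the WT the log2 difference was -0.03 (limma adjusted p = 0.963). The deposited values carry no detection call, so the size of a fold change against intensities this low is uncertain.

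MIR172C stayed between 5.89 and 13.12, MIR172D between 1.71 and 6.46 and MIR172E between 16.08 and 26.57, and none of these 3 loci passed the test in any comparison. MIR172E was at 21.89, 25.72 and 26.57 in dcl1-9 dark against 19.38, 16.45 and 16.27 in dcl1-9 light. These 2 groups did not overlap, but the difference missed the threshold (log2 difference 0.51, SE 0.20, limma adjusted p = 0.0767).

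**Figure D2:**
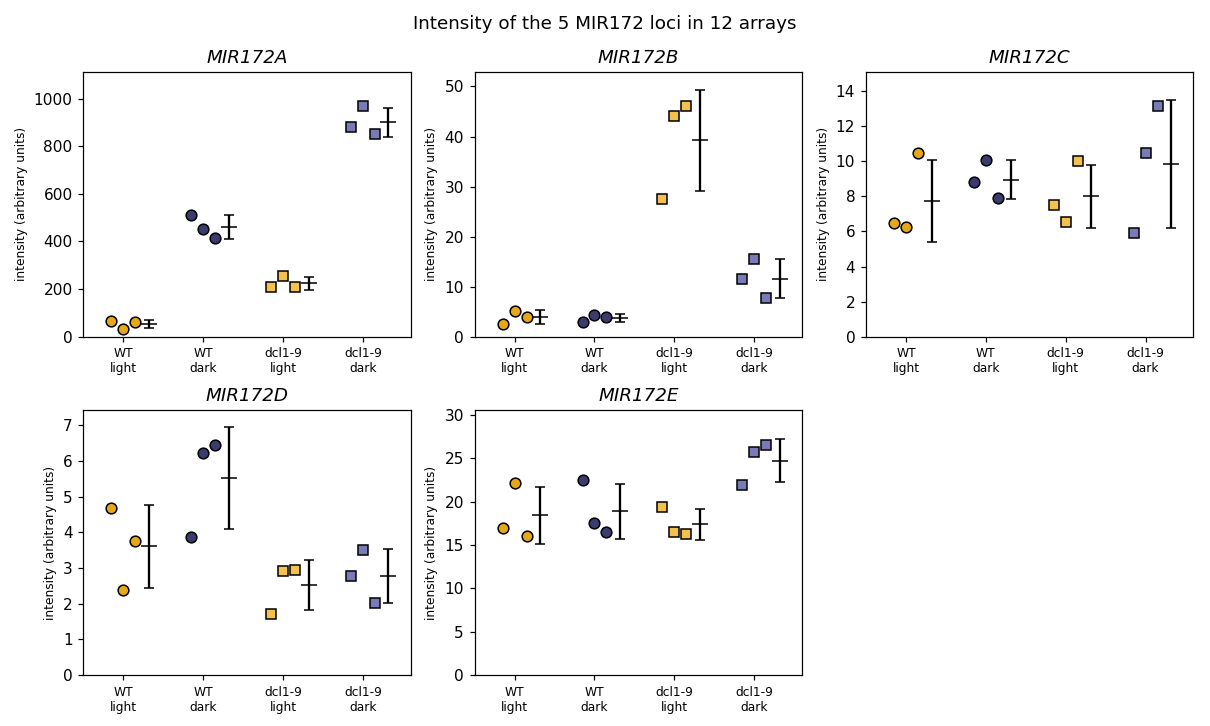
Intensity (arbitrary units, linear axes from 0) of the 5 MIR172 loci in each of the 12 arrays, with circles for WT, squares for dcl1-9, light groups in yellow and dark groups in blue, and the mean ± SD of 3 arrays beside each group. MIR172A rose in the dark in both genotypes, and MIR172B was above 7 only in dcl1-9, where it ranged from 7.79 to 46.01.

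The next comparison asked how the genes differed between dcl1-9 and the WT under the same condition, with the same arrays that gave the dark responses. Over all probe sets the median log2 difference was -0.14 in the light and -0.12 in the dark. Differences between the genotypes are given relative to that median, while SE and p belong to the unshifted difference. Among probe sets with a mean intensity of at least 20 the median was only -0.039 in the light and -0.025 in the dark. The shift enlarges a positive difference and shrinks a negative one, so for TOE2, SNZ and MIR172A the unshifted fold is printed too. In the light 9.25% of all probe sets were called, 5.92% higher in dcl1-9 and 3.33% lower. Of the 6 genes, TOE2 was higher, SNZ was lower and 4 were not called. In the dark 7.46% of all probe sets were called, 4.45% higher and 3.02% lower, which is 1238 higher and 839 lower (2043 and 711 after centring each array on its median). Here TOE2 was higher and the other 5 genes were not called.

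TOE2 was 2.90-fold higher in dcl1-9 light than in WT light, relative to the median (log2 difference 1.54, SE 0.15, limma adjusted p = 0.00012). In the dark it was 3.73-fold higher (1.90, SE 0.15, limma adjusted p = 2.47e-05). Unshifted, TOE2 was 2.63-fold higher in the light and 3.42-fold higher in the dark. Each of the 6 dcl1-9 arrays exceeded each of the 6 WT arrays. SNZ went the other way in the light, 4.13-fold lower in dcl1-9 (unshifted 4.55-fold, log2 difference relative to the median -2.05, SE 0.24, limma adjusted p = 0.000143). In the dark SNZ was at 9.77 to 12.32 in dcl1-9 against 14.77 to 22.05 in the WT, without overlap, but the difference was not called (-0.59, SE 0.24, limma adjusted p = 0.0802). It was called with the replicate number as a block (limma adjusted p = 0.0443).

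For TOE1 the log2 difference between dcl1-9 and WT, relative to the median, was -0.34 in the light (limma adjusted p = 0.148) and 0.39 in the dark (limma adjusted p = 0.423), with overlapping arrays both times. TOE3 had -0.42 in the light (limma adjusted p = 0.123), where the arrays did not overlap, and -0.29 in the dark (limma adjusted p = 0.26). AP2 had -0.25 and -0.46 (limma adjusted p = 0.266 and 0.12) and SMZ 0.16 and 0.06 (limma adjusted p = 0.958 and 0.911). With the replicate number as a block, AP2 was called lower in dcl1-9 in both conditions (limma adjusted p = 0.0363 and 0.00517) and TOE1 in the light (0.0388). In that fit 18.2% of all probe sets were called in the light and 15.6% in the dark.

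Among the MIR172 loci, MIR172A and MIR172B were higher in dcl1-9 than in the WT in both conditions and none was lower. Of all probe sets 9.25% were called in the light and 7.46% in the dark. Relative to the median, MIR172A was 4.70-fold higher in the light (unshifted 4.27-fold, limma adjusted p = 8.19e-05) and 2.14-fold higher in the dark (unshifted 1.96-fold, limma adjusted p = 0.0149). MIR172B was 11.3-fold higher in the light (limma adjusted p = 7.05e-05) and 3.34-fold higher in the dark (limma adjusted p = 0.0114). The size of the MIR172B differences depended on how such low intensities are treated: with log2(value + 16) the unshifted log2 difference went from 3.36 to 1.46 in the light and from 1.62 to 0.48 in the dark, still called (limma adjusted p = 3.97e-05 and 0.0407). Both calls in the dark were lost without dcl1-9 dark replicate 1 (limma adjusted p = 0.0667 for MIR172A and 0.0597 for MIR172B) or 2 (0.0635 and 0.0583), and that of MIR172A also without WT dark replicate 3 (0.0695).

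**Figure D3:**
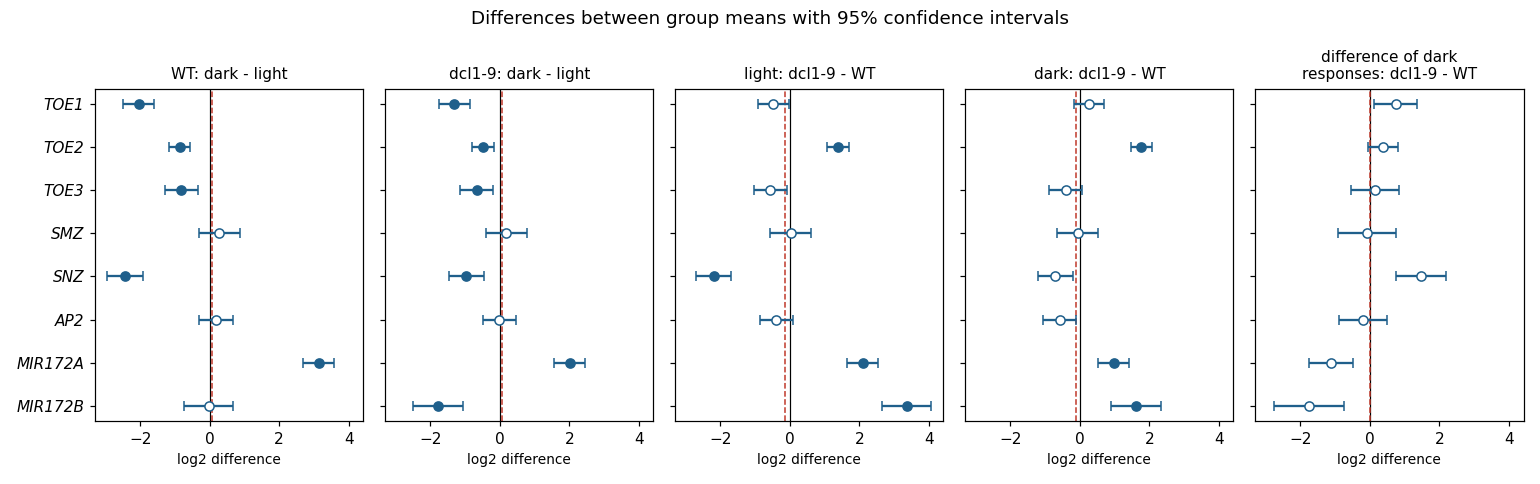
Log2 differences (x axes) with 95% confidence intervals for the 6 genes, MIR172A and MIR172B in the 5 comparisons, unshifted. Filled points passed the test, the solid line marks 0 and the dashed line the median of all probe sets. TOE2 stands to the right of the median in both comparisons of dcl1-9 with WT, and SNZ to the left in the light (-2.19).

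Whether the dark response differed between the genotypes was tested as the difference of the 2 responses, dcl1-9 minus WT. Over all probe sets 0.104% were called, 0.0144% higher and 0.0898% lower. By limma none of the 6 genes and none of the 5 MIR172 loci was called, with 2 of 6 and 2 of 5 at an unadjusted p under 0.05, where 5.73% of all probe sets were. SNZ averaged only 21.1 in dcl1-9 light and 10.8 in dcl1-9 dark, intensities so low that the size of its fall there is uncertain. The smaller fall of SNZ in dcl1-9 gave a log2 difference of 1.48 (SE 0.33, 95% confidence interval 0.76 to 2.19, limma adjusted p = 0.149). It was called after adding 16 to each value (1.26, limma adjusted p = 0.0373) and without WT light replicate 2 (1.73, limma adjusted p = 0.0442).

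TOE1 had the next largest value of the 6 genes, 0.74 (SE 0.29, 95% confidence interval 0.12 to 1.37, limma adjusted p = 0.723). For TOE2 the interval was -0.06 to 0.82, for TOE3 -0.53 to 0.83, for AP2 -0.88 to 0.48 and for SMZ -0.92 to 0.75. MIR172A had -1.12 (SE 0.30, 95% confidence interval -1.76 to -0.48, limma adjusted p = 0.286) and MIR172B -1.75 (SE 0.47, -2.75 to -0.74, limma adjusted p = 0.3). A smaller dark response of SNZ, TOE1 or MIR172A in dcl1-9 was therefore not shown at the adjusted threshold.

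Other genes of the pathway were taken from lists by role. Of 5 regulators that act on MIR172 or on its processing (SPL9, SPL10, SPL15, SVP and GI), 2 fell in the dark in the WT and 3 in dcl1-9, and none rose (after median centring SPL10 did in dcl1-9, 0.45, limma adjusted p = 0.0396). Among all probe sets 27.4% were called in the WT (14.5% lower) and 23.7% in dcl1-9 (12.9% lower). SPL9, which activates MIR172B and is itself a target of miR156, was at 76, 44.74 and 60.92 in WT light and at 29.6, 26.57 and 26.68 in WT dark. The mutant had 106.8, 118.76 and 129.25 in the light and 28.56, 28.12 and 27.3 in the dark. The dark arrays of both genotypes thus lay within 26.57 to 29.6, while in the light dcl1-9 was above the WT.

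SPL9 fell 2.15-fold in the WT (limma adjusted p = 0.000384) and 4.21-fold in dcl1-9 (limma adjusted p = 1.67e-06), and in the light it was 2.19-fold higher in dcl1-9 relative to the median (limma adjusted p = 0.00663). SPL15 fell in both genotypes (-0.91 and -1.29, limma adjusted p = 0.0229 and 0.00285), its WT call being lost without WT light replicate 1 (-0.75, limma adjusted p = 0.105) or WT dark replicate 3 (-0.57, 0.109) and with the compared groups alone (0.0605). GIGANTEA (GI), a clock protein that raises miR172 abundance, fell in dcl1-9 (-0.98, limma adjusted p = 0.00052). In the WT its difference was -0.44 (limma adjusted p = 0.0631), and it was called without WT light replicate 3 (-0.60, 0.0143) or WT dark replicate 1 (-0.59, 0.0212), with median centring (-0.47, 0.0278) and with a minimum mean intensity of 20 (-0.44, 0.0456).

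Of 9 genes for proteins known to work with the AP2 types, 2 rose and 3 fell in the dark in each genotype, where 27.4% (WT) and 23.7% (dcl1-9) of all probe sets were called. TOPLESS (TPL), the corepressor that AP2 recruits, rose (0.68 in the WT and 0.47 in dcl1-9, limma adjusted p = 0.00471 and 0.0448), and the dcl1-9 call was lost without any 1 of the 6 dcl1-9 arrays (limma adjusted p = 0.0622 to 0.138). The TOPLESS-related genes TPR3 (-1.07 and -1.48, limma adjusted p = 0.000294 and 2.23e-05) and TPR4 (-0.76 and -0.61, limma adjusted p = 0.0058 and 0.025) fell. FKF1, a blue light receptor that binds TOE1, fell 2.50-fold in the WT and 2.47-fold in dcl1-9 (limma adjusted p = 0.000954 and 0.00132). CONSTANS (CO), whose activity TOE1 inhibits, rose in the WT (0.83, limma adjusted p = 0.0046), and the histone deacetylase gene HDA19 rose in dcl1-9 (0.46, limma adjusted p = 0.0179). In the WT the HDA19 difference was 0.34 (limma adjusted p = 0.0693), and it was called with quantile normalization (0.0416), a minimum mean intensity of 20 (0.0476) or without WT dark replicate 3 (0.0484). Between the genotypes TPL and TPR3 were higher in dcl1-9 light than in WT light (0.73 and 1.06 relative to the median, limma adjusted p = 0.0343 and 0.00729), where 9.25% of all probe sets were called. In the dark, where 7.46% were, limma called none of the 9 (6 of 9 at an unadjusted p under 0.05, where 26.1% of all probe sets were). After centring each array on its median, TPR1, TPR3 and TPR4 were called higher there (limma adjusted p = 0.0361, 0.0402 and 0.033), and with log2(value + 16) CO was called lower (-0.43, 0.0495). TPR1 was also called with the compared groups alone (0.0366), and TPR4 with a minimum mean intensity of 20 (0.0493) or without dcl1-9 dark replicate 3 (0.0377).

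FLM, a MADS-box repressor of flowering that SMZ depends on, was close to the threshold in the dark (0.44 in the WT and 0.48 in dcl1-9, limma adjusted p = 0.0676 and 0.0517). It was called higher in both with quantile normalization (0.0414 and 0.0233) and a minimum mean intensity of 20 (0.0463 and 0.0349). In dcl1-9 log2(value + 16) (0.0477), median centring (0.0242) and the compared groups alone (0.0486) also called it. In the WT it was also called without WT light replicate 2 (0.0264) or WT dark replicate 2 (0.0498). Some calls of the other partner genes did not hold when a single array was left out. In dcl1-9 that of TPR4 was lost without dcl1-9 light replicate 1 or 2 (limma adjusted p = 0.114 and 0.0611) or dcl1-9 dark replicate 3 (0.123). That of HDA19 was lost without dcl1-9 light replicate 3 (0.073) or dcl1-9 dark replicate 1 or 2 (0.0584 and 0.0545). The genotype call of TPL in the light was lost without any 1 of the light arrays except WT light replicate 2 (limma adjusted p = 0.0714 to 0.14). It was also lost with no intensity trend (0.0598) and with the compared groups alone (0.0948). No intensity trend ended the TPL call in dcl1-9 dark too (0.0799).

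Of 10 genes that the AP2 types repress or that act beside them in flowering, 3 rose in the dark in the WT and 4 in dcl1-9, and none fell. Among all probe sets 27.4% were called in the WT (12.8% higher) and 23.7% in dcl1-9 (10.8% higher). TEMPRANILLO 2 (TEM2), a repressor of FT, was at 12.03, 17.25 and 12.51 in WT light and at 102.73, 81.96 and 131.83 in WT dark. In dcl1-9 light it was at 12.04, 21.84 and 13.91 and in dcl1-9 dark at 49.34, 64.64 and 96.75. The dark arrays lay above the light arrays in both genotypes, by 7.53-fold in the WT (limma adjusted p = 2.54e-06) and 4.39-fold in dcl1-9 (limma adjusted p = 5.91e-05).

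TEM1 rose 2.86-fold and 3.46-fold in the same order (limma adjusted p = 7.56e-05 and 2.28e-05). FLS2, the flagellin receptor gene that TOE1 and TOE2 are known to repress, rose 2.77-fold and 2.53-fold (limma adjusted p = 0.000186 and 0.000524). FLS2 was also higher in dcl1-9 than in the WT, 2.39-fold in the light and 2.16-fold in the dark relative to the median (limma adjusted p = 0.0102 and 0.0201), and its dark call was lost without WT dark replicate 3 (0.0945) or dcl1-9 dark replicate 1 or 2 (0.0949 and 0.079).

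TWIN SISTER OF FT (TSF) rose in dcl1-9 (0.84, limma adjusted p = 0.0342) and was lower in dcl1-9 light than in WT light (-0.77 relative to the median, limma adjusted p = 0.0487). The first TSF call was lost without dcl1-9 light replicate 1 or 3 or dcl1-9 dark replicate 1 or 2 (limma adjusted p = 0.0526 to 0.16), and the second was lost without any 1 of the light arrays but dcl1-9 light replicate 2 (0.0667 to 0.143). Quantile normalization and the compared groups alone also ended the first (0.0598 and 0.0774) and the second (0.14 and 0.116). The second was further lost with log2(value + 16) (0.0556) and no intensity trend (0.0533). FT itself, the leaf-made florigen, was not called in the dark (-0.35 in the WT and 0.34 in dcl1-9, limma adjusted p = 0.407 and 0.45), nor were SOC1, FUL, AP1, LFY and AG. Of the 10 genes 6 averaged under 20. FT, with group means of 7.36 to 12.6, is so low that a missing call does not show an absent response. SOC1 just missed a call between dcl1-9 dark and WT dark (unshifted -0.90, limma adjusted p = 0.0574). It was called lower with log2(value + 16) (0.0499), quantile normalization (0.0366), a minimum mean intensity of 20 (0.0446), the compared groups alone (0.0358) or without dcl1-9 dark replicate 3 (0.025).

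Finally, 12 AP2-type genes that lack a miR172 site were counted in the same way. In the dark 2 rose and 3 fell in each genotype, where 27.4% (WT) and 23.7% (dcl1-9) of all probe sets were called. Their median log2 difference was -0.06 in the WT and -0.09 in dcl1-9, against -0.84 and -0.58 for the 6 genes with a site. WRINKLED 4 (WRI4), a regulator of cuticular wax synthesis, averaged 48.7 in WT light and 676 in WT dark (a 13.9-fold rise, limma adjusted p = 3.76e-08), with 38.4 and 608 for the mutant (16.2-fold, limma adjusted p = 3.14e-08). AT2G41710 rose 2.29-fold and 2.54-fold (limma adjusted p = 0.000116 and 5.37e-05). Of the AINTEGUMENTA-LIKE genes, which act in organ growth, AIL6 fell 2.34-fold and 2.05-fold (limma adjusted p = 0.00217 and 0.0081) and AIL5 2.03-fold and 2.02-fold (0.0114 and 0.0137).

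WRI3 fell in the WT (-0.75, limma adjusted p = 0.036) and ANT, a promoter of organ growth, in dcl1-9 (-1.23, limma adjusted p = 0.00238). In the WT the ANT difference was -0.40 (limma adjusted p = 0.29), and it was called without WT dark replicate 2 (-0.71, 0.0372). Between the genotypes AIL7 alone was called, lower in dcl1-9 light (-0.67 relative to the median, limma adjusted p = 0.0239). Of all probe sets 9.25% were called between the genotypes in the light and 7.46% in the dark. The WRI3 call was lost without WT light replicate 1 or 2 or WT dark replicate 1 or 3 (limma adjusted p = 0.0613 to 0.143), the AIL5 call in dcl1-9 without dcl1-9 light replicate 1 or dcl1-9 dark replicate 2 or 3 (0.0509 to 0.0595), and the AIL7 call without WT light replicate 1 or 3 or dcl1-9 light replicate 2 or 3 (0.0584 to 0.106). Quantile normalization (0.0656) and the compared groups alone (0.0568) also ended the AIL7 call.

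**Figure D4:**
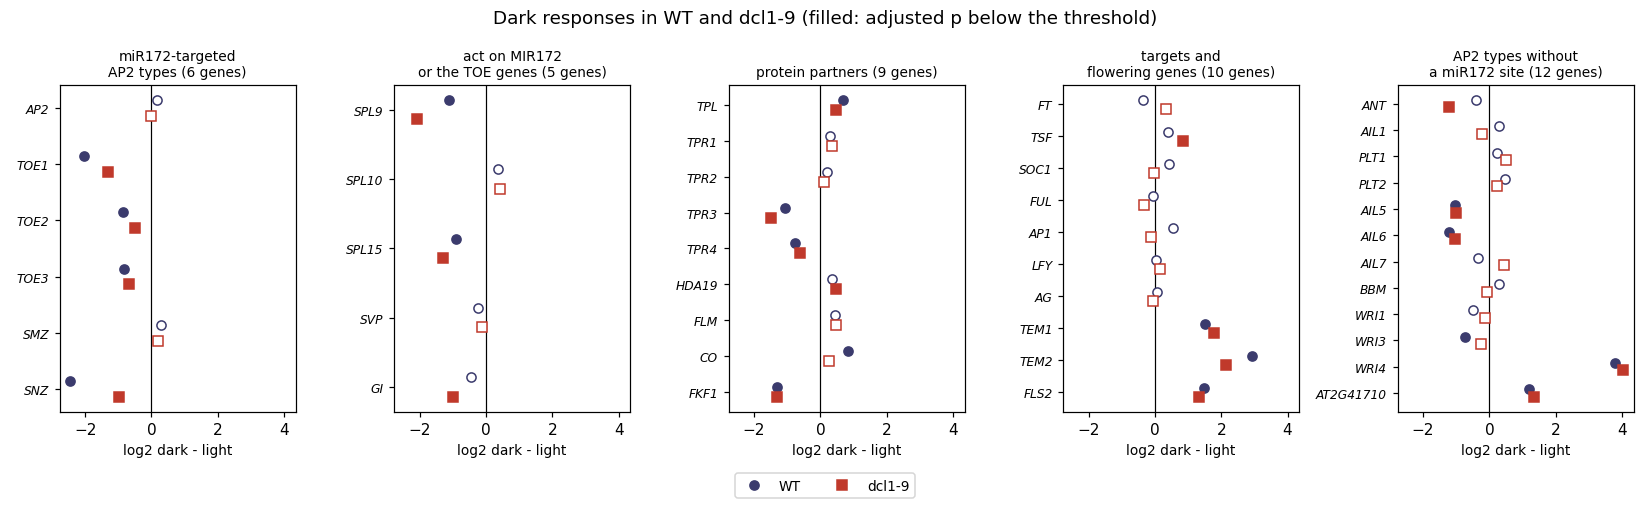
Log2 difference between dark and light (x axes) for each gene of the 5 lists, with circles for WT and squares for dcl1-9 and filled symbols for genes that passed the test. TOE1, TOE2, TOE3 and SNZ lie left of 0 in both genotypes, and TEM1, TEM2 and FLS2 and the site-free WRI4 and AT2G41710 lie right of it.

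To place the 4 called genes in the whole array, the probe sets with the most similar pattern over the 12 arrays were found by the root mean square difference of log2 intensities, each centred on its own mean, among probe sets with a mean intensity of at least 20. For TOE1 the nearest were BCAT3, a branched-chain aminotransferase gene (0.15), RACK1C_AT (0.20) and NF-YA4, a subunit of the NF-Y transcription factor (0.21). BCAT3 averaged 455 in the light and 113 in the dark for WT leaves, and 299 and 129 for the mutant. TOE1 had the same order of groups (476, 116, 344 and 138), which the choice by closeness favours.

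For TOE2 the nearest were MIR159b (0.23), the receptor kinase gene ERECTA (ER, 0.24) and MIR779 (0.27). MIR159b averaged 59.4 in the light and 33.2 in the dark for WT leaves, and 176 and 139 for the mutant. Like TOE2, it was lowest in WT dark and highest in dcl1-9 light, but it was picked for this likeness. The nearest to TOE3 were AT1G72510, TIM8 and AT5G53920 (0.16, 0.16 and 0.17). SNZ had no pattern as close, with AT2G18890 (0.42), AT2G15020 (0.44) and AT4G17680 (0.44).

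**Figure D5:**
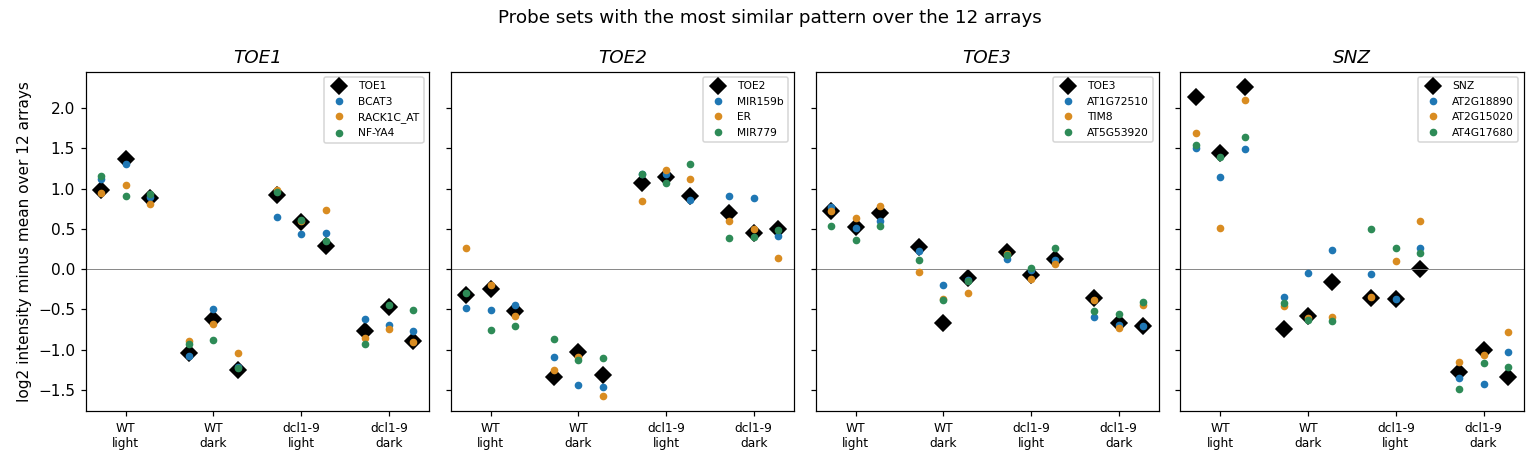
Log2 intensity minus the mean over 12 arrays (y axis) in each array of the 4 groups for TOE1, TOE2, TOE3 and SNZ (black diamonds) and the 3 probe sets nearest to each (coloured points). The TOE1 and TOE3 neighbours stay within 0.15 to 0.21 of them (root mean square), and the SNZ neighbours within 0.42 to 0.44.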

How the data were processed

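Expression was measured on Affymetrix Arabidopsis Gene 1.1 ST arrays (12 arrays, 3 per group). The authors normalized and modelled the arrays in dChip with gene-level probe sets (Brainarray version 15) and deposited 1 linear intensity per probe set and array, which was used here. They also deposited group means (the authors' intensity means) and comparison columns with fold-changes, differences and standard errors. Only their group means and standard errors entered an alternative, in which their criterion, a 90% lower bound of the fold above 1.2, was recomputed. Values below 1 were set to 1, log2 was taken and limma 3.58.1 (R 4.3.3; lmFit, contrasts.fit, eBayes with trend) was fitted to 4 groups over all 27827 probe sets, with Benjamini-Hochberg adjustment. Symbols were matched through RefSeq (TAIR10.1) for 27241 probe sets. Simulated data with known changes recovered 52% of 100 genes changed by 1 log2 unit and 96% of 100 changed by 2, for WT dark against WT light (27827 probe sets). Only these genes were changed there, and the noise was independent between arrays. In the real comparison 27.4% of probe sets were called, so the shares recovered do not give its power. Only 3 arrays per group limit the precision.

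Named were the 6 genes, MIR172A to MIR172E, DCL1, DIN6, in each list up to 4 called genes per comparison with the largest difference, and the 3 nearest probe sets of each called gene. HDA19, TPL, WRI3 and AIL5 were named beyond this where needed to complete a short count. The genes, lists and tests were chosen with earlier results of these data known.

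Alternatives were log2(value + 16), quantile normalization, median centring, a minimum mean intensity of 20 over all arrays, no intensity trend, the compared groups alone, a replicate block, the recomputed criterion, and leaving out each array in turn.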

Additional observations from a re-analysis of the deposited data

How the results depend on the processing

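No difference of the 6 genes or the MIR172 loci that was called changed sign under any alternative. Of these genes' values, 331 kept direction and side of the threshold under another setting, 9 that were called in neither fit changed sign, 5 gained a call and 4 lost one. With 1 array left out, 348 kept both, 32 called in neither fit changed sign, 1 gained a call and 15 lost one. The counts of the 6 genes called were 4 in WT dark and 4 in dcl1-9 dark, which became 2 in dcl1-9 with log2(value + 16), where the TOE3 and SNZ calls were lost (limma adjusted p = 0.055 and 0.0503), and 1 in place of 0 for the difference of the dark responses. The TOE3 call in dcl1-9 was also lost with quantile normalization (0.057) and median centring (0.0514). With a minimum mean of 20 only MIR172A of the MIR172 loci was tested, so that the count was 1 in dcl1-9 dark against light and 1 in each comparison of the genotypes. Leaving out 1 array gave 2 to 4 of the 6 genes for dcl1-9 dark, 0 to 1 for the difference of the dark responses, and 0 to 2 MIR172 loci for dcl1-9 dark against WT dark. By the recomputed criterion the same 4 genes were lower in the dark in each genotype.

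The labels number the replicates but name no batch that same-numbered arrays share. After removal of group means, same-numbered arrays correlated at 0.031 to 0.337 (median 0.2), above 0.1 in 14 of 18 pairs. Arrays with different numbers correlated at -0.32 to 0.12 (median -0.10). An array correlated best with its own number in 33 of 36 cases. Same-numbered arrays thus shared part of their variation. With the replicate number as a block, 4 of the 6 genes were called between the genotypes in the light (TOE2, SNZ, and the further AP2 and TOE1, limma adjusted p = 0.0363 and 0.0388) and 3 in the dark (TOE2, and the further AP2 and SNZ, 0.00517 and 0.0443), where 18.2% and 15.6% of all probe sets were called. Among the list genes the block also called GI and HDA19 in WT dark (0.0422 and 0.0436), FLM in WT dark and dcl1-9 dark (0.0485 and 0.0357) and AIL7 in dcl1-9 dark (0.0453). Higher in dcl1-9 than in the WT were GI, TPR1, TPR2 and TPR4 in the light (0.036, 0.0322, 0.0146 and 0.029). In the dark TPR1 to TPR4 were higher (0.0177, 0.0301, 0.0478 and 0.00725). Lower in dcl1-9 were TEM1 in the light (0.0458) and CO, SOC1 and AIL1 in the dark (0.0298, 0.0193 and 0.0431). The cause was not tested.

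Over all probe sets the count for dcl1-9 light against WT light was 2573 and ranged from 775 (without WT light replicate 3) to 5066 (replicate block). That for the dark was 2077 and ranged from 441 (without dcl1-9 dark replicate 1) to 4338 (block), and that for the difference of the responses was 29 and ranged from 8 to 77. For this last count the split was 4 higher and 25 lower, against 11 and 29 with quantile normalization and 7 and 21 with median centring.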
